A study of Mus musculus with 7 samples.

Results

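The genes described here belong to high endothelial venules (HEVs) and to small venules in general. They were chosen by symbol from a list of 10: the sialomucins Glycam1, Cd34, Emcn and Podxl, the glycan-modifying enzymes Chst4, Fut7 and Gcnt1, the selectins Selp and Sele, and the chemokine-binding receptor Ackr1. Of these, 9 were found among the 21176 genes of the deposited table, and Chst4 was not analysed here. RNA came from follicular dendritic cells (FDCs), the antigen-holding stromal cells of B-cell follicles, sorted out of the popliteal lymph nodes of male mice, 8 to 12 weeks old and not immunized, by flow cytometry. The groups were wild type (WT, 4 samples) and Ngfr KO (3 samples), in which the gene of the neurotrophin receptor p75 is disrupted. No other allele, strain, agent or Cre driver is named in the labels. Each sample pooled lymph nodes of several animals, so the spread between samples is a spread between pools.

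HEVs are the postcapillary venules through which lymphocytes enter lymph nodes. Their endothelium displays mucin-like scaffolds whose O-linked glycans are branched, sialylated, fucosylated and sulfated, and L-selectin on lymphocytes binds these glycans. P-selectin and E-selectin are the endothelial selectins of activated venules, and ACKR1 carries chemokines across venular walls. FDCs are not endothelial cells, so in an FDC sort these transcripts would come from FDCs themselves or from cells carried along with them.

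The promoters of the most abundant member, Glycam1, of the member with the largest fall, Emcn, and of the member that rose, Gcnt1, are shown because the values of these genes went in different directions. Sequences are from RefSeq on GRCm38.p6, 250 bases before to 50 bases after an annotated start, written 5′ to 3′ on the strand of the gene. Capitals mark AGGAAG, the core bound by many ETS factors of endothelium, and TTCNNNGAA, the element bound by STAT factors, on either strand. Glycam1 lies on the minus strand (chr15:103565032-103565331), Emcn on the plus strand (chr3:137340828-137341127), and Gcnt1 on the minus strand with 3 annotated starts (chr19:17372795-17373094, chr19:17356618-17356917 and chr19:17339456-17339755). Values per gene do not show which start was used.
Glycam1: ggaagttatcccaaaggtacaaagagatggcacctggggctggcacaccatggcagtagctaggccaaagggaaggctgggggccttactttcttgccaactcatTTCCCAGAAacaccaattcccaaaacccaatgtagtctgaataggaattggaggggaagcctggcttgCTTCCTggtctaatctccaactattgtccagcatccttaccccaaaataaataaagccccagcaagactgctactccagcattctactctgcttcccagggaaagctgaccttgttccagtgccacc
Emcn: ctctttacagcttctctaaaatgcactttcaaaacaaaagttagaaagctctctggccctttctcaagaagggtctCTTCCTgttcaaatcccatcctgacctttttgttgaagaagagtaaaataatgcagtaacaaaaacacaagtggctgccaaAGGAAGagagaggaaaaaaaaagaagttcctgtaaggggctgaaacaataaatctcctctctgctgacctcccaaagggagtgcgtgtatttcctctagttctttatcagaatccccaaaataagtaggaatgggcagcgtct
Gcnt1 distal start: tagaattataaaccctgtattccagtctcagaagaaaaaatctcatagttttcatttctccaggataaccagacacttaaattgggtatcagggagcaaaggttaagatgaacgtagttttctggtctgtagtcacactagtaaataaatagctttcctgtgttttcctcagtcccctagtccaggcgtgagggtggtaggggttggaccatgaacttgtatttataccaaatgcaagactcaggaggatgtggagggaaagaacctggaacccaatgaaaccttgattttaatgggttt
Gcnt1 middle start: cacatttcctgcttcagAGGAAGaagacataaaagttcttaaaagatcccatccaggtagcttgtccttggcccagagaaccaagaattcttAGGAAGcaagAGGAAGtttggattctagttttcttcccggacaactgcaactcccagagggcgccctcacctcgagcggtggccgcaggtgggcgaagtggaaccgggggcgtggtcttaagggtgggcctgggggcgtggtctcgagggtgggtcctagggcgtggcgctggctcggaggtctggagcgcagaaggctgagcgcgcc
Gcnt1 proximal start: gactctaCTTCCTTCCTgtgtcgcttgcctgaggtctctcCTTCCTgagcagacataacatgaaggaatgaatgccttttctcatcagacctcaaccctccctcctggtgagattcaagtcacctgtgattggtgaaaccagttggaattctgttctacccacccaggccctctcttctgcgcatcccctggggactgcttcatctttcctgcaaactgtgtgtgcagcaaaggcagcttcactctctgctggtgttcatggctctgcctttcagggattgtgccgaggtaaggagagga
Of the 9 members, 8 had a promoter entry, with 11 entries in all. The ETS core was found in 9 of the 11 entries and in 35.4% of all 32851 promoters of the same length. The STAT element was found in 2 of the 11, those of Glycam1 and Sele, and in 8.30% of all promoters. The Emcn promoter held 2 ETS cores. At Gcnt1 there were 0 at the distal start and 3 at each of the other starts, with a pair of overlapping matches at the proximal one.

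Libraries held 17244925 to 18873542 reads in WT and 20741770 to 21538400 in Ngfr KO, so depth and genotype cannot be told apart. Values are reads scaled by 1 factor per library, and a value of 1 stands for 230 to 295 reads. Ngfr, the targeted gene, had 97 to 298 reads in WT, against 46 to 104 in Ngfr KO, and the table does not give reads by exon. Of 13 FDC markers, 12 were in the table, with summed values of 1742 to 4934 in WT, against 7581 to 10115 in Ngfr KO. A list of 16 pan-endothelial genes was present in all libraries too, with summed values of 151 to 188 in WT, against 62.0 to 84.1 in Ngfr KO. In that list 14 of 16 genes were lower in Ngfr KO and 2 were not called (limma), beside 15.8% of all tested genes lower. The median log2 change of the list was -1.25, against 0.02 over all genes tested. In sorted pools, fewer cells of a type and less RNA per cell cannot be told apart.

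Unlike the pan-endothelial list, the venular genes did not go one way. Emcn and Podxl fell, Gcnt1 rose, and Glycam1, Ackr1, Cd34, Sele, Selp and Fut7 were not called in the fit across all genes (limma, log2(value + 1), Benjamini-Hochberg adjusted p under 0.05). Every Ngfr KO value lay below every WT value for 2 of the 9 members, against 13.1% of all genes in the table, and above for 1, against 12.5%. Among genes passing the filter on low values these shares were 18.3% and 22.6%. The filter, 3 samples with a value of 1 or more, was met by 5 members. Of these, Emcn and Podxl passed through their WT samples alone, so their presence among the tested genes already leans towards a difference. The fit called 3 of the 5, where 34.2% of the 8326 genes tested were called. edgeR's quasi-likelihood test on reads recovered from the values covered all 9 members and called the same 3, where 15.2% of 16751 genes were called. With DESeq2, Glycam1 was called as well, where 22.5% of 17794 genes were called.

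**Figure D1:**
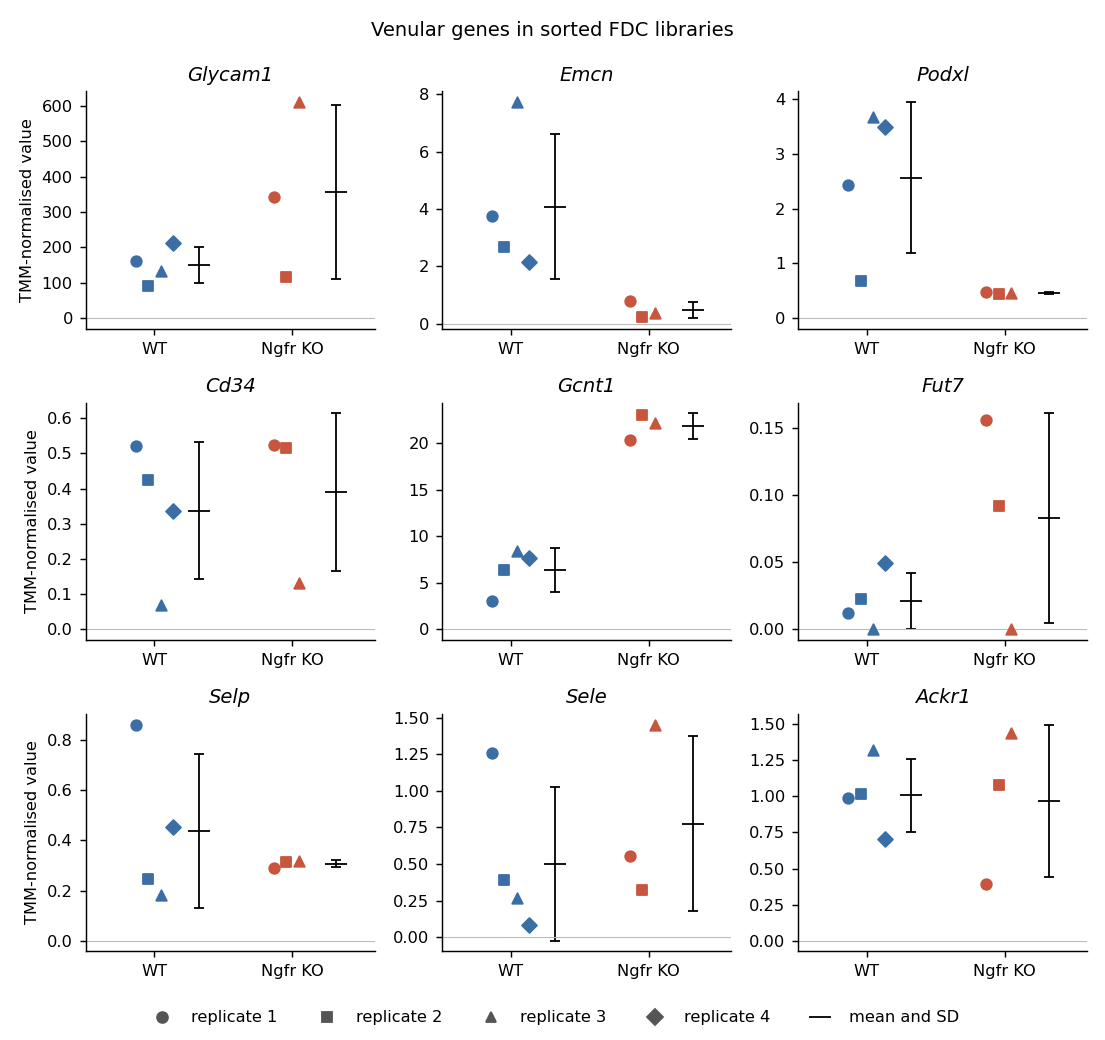
TMM-normalised values (y axis, linear, a separate scale in each panel) of the 9 members in WT (blue, 4 samples) and Ngfr KO (red, 3 samples). Each symbol is 1 library, with the symbol shape giving the replicate number, and the bars give mean and SD. Emcn and Podxl are lower in all 3 Ngfr KO libraries, Gcnt1 is higher in all 3, and the other 6 panels overlap.

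Levels of the members differed widely once divided by exon length. In WT the value per kb of annotated exon was 70.3 ± 24.1 for Glycam1 (SD, n = 4), rank 52 of 21137 genes. Gcnt1 followed at 1.10 ± 0.41, Emcn at 0.753 ± 0.467, Ackr1 at 0.718 ± 0.180 and Podxl at 0.467 ± 0.250 per kb. These 4 neighbours did not differ beyond their spread. Sele (0.172 ± 0.180 per kb), Selp (0.0990 ± 0.0696), Cd34 (0.0463 ± 0.0266) and Fut7 (0.00889 ± 0.00900) came last, again with overlapping spreads between neighbours. Glycam1 therefore stood apart from every other member, by more than the spread of either group. In Ngfr KO it ranked 26 of 21137, while Emcn moved from rank 3588 to 11048 and Podxl from 5079 to 11147. Gcnt1 moved from rank 2638 to 1155. The order in Ngfr KO was Glycam1 (167 ± 116 per kb), Gcnt1 (3.78 ± 0.24), Ackr1 (0.691 ± 0.377), Sele (0.266 ± 0.206), Emcn (0.0860 ± 0.0511), Podxl (0.0840 ± 0.0031), Selp (0.0694 ± 0.0032), Cd34 (0.0535 ± 0.0306) and Fut7 (0.0350 ± 0.0333). Emcn and Podxl thus stood next to Selp there, whereas in WT they stood next to Ackr1.

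**Figure D2:**
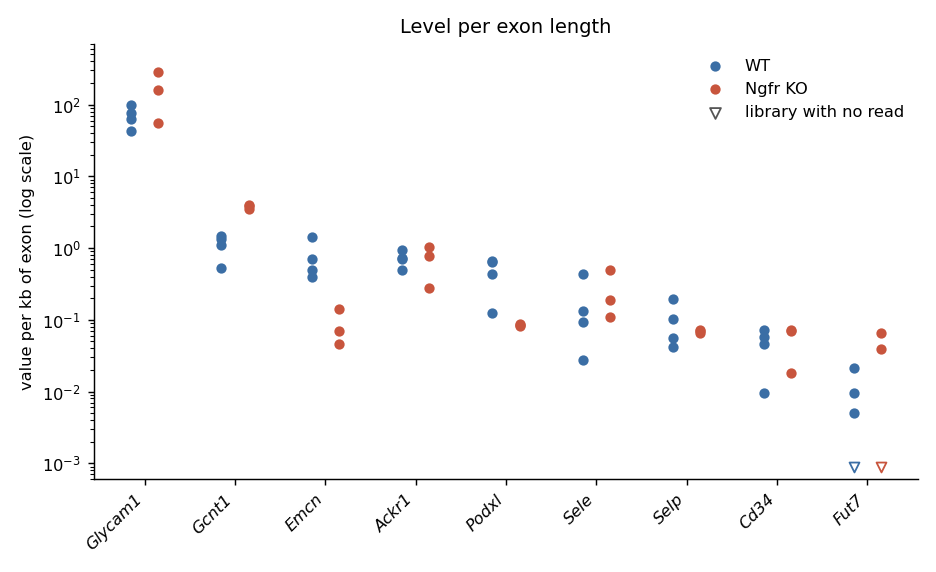
Values per kb of annotated exon (y axis, log scale) for the 9 members, ordered by their WT mean, in WT (blue) and Ngfr KO (red), 1 point per library. Open triangles mark libraries with no read, and Glycam1 lies far above the other 8 members in both groups.

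The scaffolds come first. Glycam1 (ENSMUSG00000022491, GRCm38 chromosome 15, 103562759 to 103565081, minus strand) encodes a small secreted mucin that carries L-selectin ligands on HEVs and is also a protein of milk. Its values were 162, 90.2, 135 and 213 in WT replicates 1 to 4 and 343, 117 and 611 in Ngfr KO replicates 1 to 3. Replicates 1 and 3 of Ngfr KO lay above all WT samples, while replicate 2 fell inside the WT range, so the groups overlapped. limma put the log2 change at 1.02 (SE 0.47, adjusted p = 0.107; 95% interval -0.00073 to 2.04, unadjusted). Its reads numbered 24105 to 152479 per library. edgeR gave a log2 change of 1.29 with an adjusted p of 0.0750. DESeq2 called the gene (1.29, adjusted p = 0.0170), and so did limma without Ngfr KO replicate 2 (1.67, adjusted p = 0.0103). Without Ngfr KO replicate 3, the highest library, limma gave 0.49 (adjusted p = 0.389). In those libraries the milk protein gene Csn2, from a list added after the data were seen, lay between 0.128 and 0.756 in WT and between 12.0 and 31.3 in Ngfr KO. Of 7 milk protein genes listed only Csn2 and Csn3 were in the table, and Csn3 did not exceed 0.0984. Their sum was 12.1, 31.4 and 17.6 in Ngfr KO replicates 1 to 3. Within Ngfr KO it was thus highest in replicate 2, where Glycam1 was lowest. The part of Csn2-expressing cells in the Glycam1 values was not tested.

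Emcn (ENSMUSG00000054690, chromosome 3, 137341067 to 137432185, plus strand) encodes endomucin, a sialomucin of capillary and venous endothelium. WT replicates 1 to 4 had values of 3.76, 2.66, 7.73 and 2.14, and Ngfr KO replicates 1 to 3 had 0.776, 0.248 and 0.372. All WT samples were high, WT replicate 3 most of all, and the groups did not overlap. The mean fell from 4.07 ± 2.53 (SD, n = 4) to 0.465 ± 0.276 (SD, n = 3), a level 8.75 times lower. limma put the log2 change at -1.69 (SE 0.29, adjusted p = 0.00157). On the read scale edgeR gave -3.06 (SE 0.53, adjusted p = 0.00730), since the pseudocount of 1 shrinks changes at this level. For comparison, limma changes of the 16 pan-endothelial genes ran from -1.82 to -0.36, and their edgeR changes from -2.60 to -0.29. Tested capillary genes ran from -3.84 to -0.76 with edgeR, and tested lymphatic genes from -3.19 to -1.01.

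Podxl (ENSMUSG00000025608, chromosome 6, 31519488 to 31563981, minus strand) encodes podocalyxin, a sialomucin of kidney podocytes and of endothelium that can carry L-selectin ligands. In WT replicates 1 to 4 it had values of 2.42, 0.677, 3.67 and 3.49. In Ngfr KO replicates 1 to 3 it had 0.479, 0.444 and 0.460. Ngfr KO samples were close to each other, and WT replicate 2 sat near them without overlapping. limma put the log2 change at -1.18 (SE 0.29, adjusted p = 0.00924), and edgeR at -2.41 (SE 0.50, adjusted p = 0.0126). With no filter on low values the limma adjusted p was 0.0667, and leaving out any of WT replicates 1, 3 or 4 put the gene below the filter.

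Cd34 (ENSMUSG00000016494, chromosome 1, 194938819 to 194961279, plus strand) encodes a sialomucin of endothelium, blood progenitors and some stromal cells. Its values were 0.521, 0.423, 0.0695 and 0.336 in WT and 0.522, 0.516 and 0.132 in Ngfr KO. Replicate 3 was lowest in both groups, and the groups covered the same range. Each library held 16 to 152 reads. edgeR gave a log2 change of 0.30 (SE 0.69, adjusted p = 0.806). An antisense gene, Gm16897, overlaps 148 bases of Cd34 exons, and without stated strand information reads there cannot be assigned. Of 8 markers of CD34-positive adventitial stroma, 7 were in the table with summed values of 128 to 266 in WT, against 139 to 146 in Ngfr KO. Most of that sum was Cd55, and the defining gene Pi16 did not exceed 0.0545.

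Other mucin-like scaffolds listed beside the members were 6 genes, of which 3 were tested: 1 fell and 2 rose (limma). Of all tested genes, 15.8% were called lower and 18.3% higher. The one that fell was Cd300lg (log2 change -2.77, limma adjusted p = 1.01e-05), which encodes nepmucin, a mucin of HEV and capillary endothelium. Madcam1, the mucosal addressin that FDCs also make, rose (2.69, limma adjusted p = 1.35e-04), and so did Parm1 (0.88, limma adjusted p = 0.0169). Podxl2, which encodes endoglycan and was picked with its values in view, stayed at or below 0.0389 in every library.

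Among the enzymes, Gcnt1 (ENSMUSG00000038843, chromosome 19, 17326141 to 17372844, minus strand) adds the branch on which O-linked selectin ligands are built. WT replicates 1 to 4 had values of 3.04, 6.37, 8.38 and 7.62, and Ngfr KO replicates 1 to 3 had 20.3, 22.9 and 22.2. Every Ngfr KO sample lay far above every WT sample, and the Ngfr KO samples were close together, with WT replicate 1 the lowest of all. The mean rose from 6.35 ± 2.36 (SD, n = 4) to 21.8 ± 1.4 (SD, n = 3), 3.43 times higher. limma put the log2 change at 1.70 (SE 0.26, adjusted p = 8.76e-04), and edgeR at 1.85 (SE 0.30, adjusted p = 0.00617). Gcnt1 was called under all 16 alternatives.

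Gcnt1 is active outside endothelium too, among others in activated lymphocytes, so lymphocyte markers were set beside it, from lists added after the data were seen. The 9 B-cell genes had summed values of 27.2 to 200.3 in WT, against 36.8 to 85.9 in Ngfr KO, with overlapping groups. The WT maximum was WT replicate 3, where Igkc alone gave 179.7, and the other WT sums were 27.2 to 45.4. Of 6 B-cell genes tested, 2 were called higher (limma), Blnk (log2 change 1.91, adjusted p = 9.60e-04) and Ms4a1 (0.79, adjusted p = 0.0472). Over all tested genes the share called higher was 18.3%. The 10 germinal centre B-cell genes had sums of 4.84 to 12.1 in WT, against 40.5 to 45.3 in Ngfr KO, mostly from Fas, which other cells also express (3.48 to 9.86 in WT, 34.3 to 39.1 in Ngfr KO). WT replicate 1 was lowest for both Gcnt1 and Fas. Of the 12 FDC markers, 10 were called higher and 2 were not called (limma), beside 18.3% of all tested genes higher. The median log2 change of these markers was 1.43. The part of lymphocytes or FDCs in the rise of Gcnt1 was not tested.

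Fut7 (ENSMUSG00000036587, chromosome 2, 25423267 to 25426374, plus strand) encodes the fucosyltransferase that completes selectin ligands on HEVs and leukocytes. Its reads numbered 3, 6, 0 and 13 in the WT libraries and 43, 27 and 0 in the Ngfr KO libraries, in replicate order. The 2 highest libraries were both Ngfr KO, yet 1 library in each group had no read. A count of 0 allows values of up to 0.0130 in WT replicate 3 and 0.0120 in Ngfr KO replicate 3. edgeR did not call Fut7 and gave a log2 change of 2.04 with an SE of 1.498 (adjusted p = 0.392). The list of T-cell and neutrophil markers, leukocytes in which Fut7 is known, had sums of 1.33 to 83.0 in WT, against 2.05 to 5.20 in Ngfr KO. Its high WT sums came from S100a8 and S100a9 in replicates 1 and 4.

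The list of other sulfation and glycosylation genes held 29 genes, of which 27 were in the table and 21 were tested. Of these, 7 rose, 3 fell and 11 were not called (limma), where 18.3% of all tested genes were called higher and 15.8% lower. The median log2 change of the list was 0.29. edgeR called 5 higher and 2 lower among 27, where 8.67% and 6.55% of all genes were called in these directions. Papss2, which makes the sulfate donor, rose from a WT mean of 3.95 ± 0.85 (SD, n = 4) to 10.5 ± 1.8 (SD, n = 3), with a log2 change of 1.21 (limma adjusted p = 8.74e-04). Slc35a1, the Golgi transporter of activated sialic acid, rose by 0.71 (limma adjusted p = 0.0293; edgeR adjusted p = 0.0747). St3gal6, a sialyltransferase of selectin ligand synthesis, fell from 13.05 ± 1.31 to 6.61 ± 1.10, a log2 change of -0.89 (limma adjusted p = 0.00258). Chst2, the other sulfotransferase known from HEVs and picked with its values in view, had a WT mean of 5.99 ± 2.09 (SD, n = 4) and a Ngfr KO mean of 5.91 ± 1.23 (SD, n = 3), with a limma adjusted p of 0.956.

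Selp (ENSMUSG00000026580, chromosome 1, 164115264 to 164150026, plus strand) encodes P-selectin, which endothelium and platelets store in granules. Its values were 0.864, 0.247, 0.183 and 0.454 in WT and 0.290, 0.312 and 0.316 in Ngfr KO. WT replicate 1 was the highest, and all Ngfr KO samples lay inside the WT range. edgeR gave a log2 change of -0.44 (SE 0.56, adjusted p = 0.638) on 42 to 222 reads per library. Gm16548 and Gm16587, on the opposite strand, overlap 438 and 186 bases of its exons. Of 9 platelet and megakaryocyte markers, 6 were in the table, with summed values of 9.41 to 20.96 in WT, against 5.03 to 9.81 in Ngfr KO. Itga2b, which stands in the lymphatic list too, gave the largest share, while Treml1 was at 0 in all Ngfr KO libraries and Gp6 did not exceed 0.0339.

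Sele (ENSMUSG00000026582, chromosome 1, 164048234 to 164057677, plus strand) encodes E-selectin, which inflammatory cytokines induce on venules. WT replicates 1 to 4 had values of 1.26, 0.389, 0.269 and 0.0801. Ngfr KO replicates 1 to 3 had 0.551, 0.319 and 1.45. The highest value in each group came from 1 library, WT replicate 1 and Ngfr KO replicate 3, and the groups overlapped throughout. edgeR gave a log2 change of 0.67 (SE 0.77, adjusted p = 0.596) on 21 to 363 reads. WT replicate 1 was thus the highest WT sample for both selectins, whereas in Ngfr KO only Sele varied by more than a few hundredths.

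The selectin partners and granule genes listed with them were 8, of which 6 were tested. Cd63, a membrane protein of storage granules and lysosomes, rose (log2 change 1.06, limma adjusted p = 0.0124), and 5 were not called. A count of 1 in 6 is near the 18.3% of all tested genes called higher. Vwf, the granule protein that accompanies P-selectin in endothelium, was picked with its values in view and lay between 0.126 and 0.611 in WT and between 0.220 and 0.384 in Ngfr KO.

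Ackr1 (ENSMUSG00000037872, chromosome 1, 173331886 to 173333750, minus strand) marks venular endothelium and is also known from red blood cell precursors. Its values were 0.988, 1.01, 1.33 and 0.706 in WT and 0.395, 1.08 and 1.44 in Ngfr KO. The lowest and the highest library were both Ngfr KO, so the groups overlapped. limma put the log2 change at -0.06 (SE 0.19, adjusted p = 0.835), with a 95% interval of -0.48 to 0.36. edgeR gave 0.0050 (SE 0.41, adjusted p = 0.995), so the sign of this change was not fixed. Cadm3, on the same strand, overlaps 361 bases of Ackr1 exons, and the counting could have shared reads between them. Erythroid markers were near 0: of 7 listed, 3 were in the table, and their summed value was 0 to 0.0973 in WT, against 0.112 to 0.341 in Ngfr KO.

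**Figure D3:**
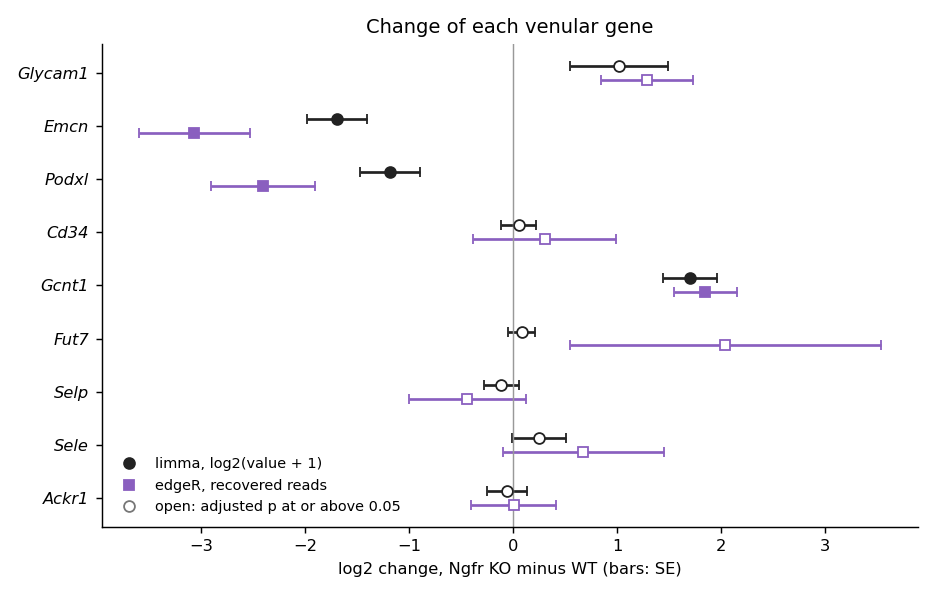
Log2 change of each member, Ngfr KO minus WT (x axis), from limma on log2(value + 1) (circles) and from edgeR on recovered reads (squares). Bars give the SE, and filled symbols have an adjusted p under 0.05: Emcn and Podxl to the left, Gcnt1 to the right. For Sele, Selp, Cd34 and Fut7, which failed the filter, the circle comes from the same limma fit with those genes added.

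Genes of venous and venular endothelium beyond the members split as well. Of 16 listed, 13 were tested, of which 6 fell, 4 rose and 3 were not called (limma), beside 15.8% of all tested genes lower and 18.3% higher. The median log2 change of the list was -0.09. Plvap, the diaphragm protein of fenestrated capillaries and venules, fell (-1.33, limma adjusted p = 0.00137). Nr2f2, the transcription factor of venous identity, picked with its values in view, went from a WT mean of 19.6 ± 5.3 (SD, n = 4) to 7.12 ± 0.77 (SD, n = 3), which is -1.31 on the log2 scale (limma adjusted p = 0.00101). Bst1 (1.41, limma adjusted p = 0.00342) and Vcam1 (1.38, limma adjusted p = 0.00324) rose, and both are made by FDCs and other stromal cells too.

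Genes of lymphocyte entry and HEV upkeep numbered 20, of which 18 were tested. Of these, 5 fell, 5 rose and 8 were not called (limma), again beside 15.8% and 18.3% of all tested genes. The median log2 change was -0.09. On the log2(value + 1) scale the largest called changes were rises of Ubd (1.88, limma adjusted p = 4.48e-04), Ccl19 (1.24, limma adjusted p = 0.00777) and Enpp2 (1.19, limma adjusted p = 0.00709). On the read scale of edgeR the largest was a fall of Notch1, a receptor of endothelium and many other cells (-2.05, adjusted p = 0.00796). Ubd is a ubiquitin-like protein of HEVs and of cytokine-exposed cells, Ccl19 a chemokine of stromal cells, and Enpp2 the enzyme autotaxin, made by HEVs and FDCs. Spns2, the sphingosine phosphate exporter of endothelium, picked with its values in view, went from a WT mean of 3.84 ± 1.28 (SD, n = 4) to 1.38 ± 0.38 (SD, n = 3), which is -0.99 on the log2 scale (limma adjusted p = 0.00497). Ltbr, the lymphotoxin receptor that maintains HEVs, picked likewise, was not called (-0.08, limma adjusted p = 0.735).

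To set the members against endothelial transcripts of the same library, each value was divided by the pan-endothelial sum. Every Ngfr KO ratio lay below every WT ratio for Emcn alone, 1 of 9 members, against 1.69% of all genes and 1.31% of those passing the filter. Emcn was 2.00, 1.76, 4.14 and 1.31% of the sum in WT and 0.923, 0.315 and 0.601% in Ngfr KO (log2 difference -1.91, exact two-sided permutation test, p = 0.0286). Its fall was thus larger than that of the summed list in every comparison of libraries. It was not the largest among vessel genes: edgeR changes reached -3.84 for tested capillary and -3.19 for tested lymphatic genes, against -3.06 for Emcn. Cd300lg, from the list of other scaffolds, fell further than these (edgeR log2 change -5.02, adjusted p = 0.00202). Podxl was 1.29, 0.448, 1.97 and 2.14% in WT and 0.569, 0.566 and 0.743% in Ngfr KO, where WT replicate 2 was the lowest of all and the groups overlapped (exact permutation p = 0.171). Without that library Podxl separated as well.

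Ratios of Gcnt1 and Glycam1 were higher in every Ngfr KO library, as they were for 42.8% of all genes and 73.3% of those passing the filter, because the sum itself was lower. Gcnt1 went from 1.62 to 4.68% of the sum in WT to 24.1 to 35.8% in Ngfr KO (log2 difference 3.08, exact permutation p = 0.0286). Glycam1 went from 59.7 to 131% to 149 to 985% (2.23, exact permutation p = 0.0286). Ackr1 (0.99), Selp (0.95), Sele (2.19) and Cd34 (1.502) had positive log2 differences with overlapping groups and exact permutation p from 0.143 to 0.229. The number of members higher in every Ngfr KO library, 2 here, was 4 against Cdh5 and Tie1 alone, against the geometric mean of the list, and without WT replicate 1 or Ngfr KO replicate 3. Within the sum, Ecscr, which was not called, had 46.7 ± 9.0 in WT (SD, n = 4), against 33.1 ± 4.2 in Ngfr KO (SD, n = 3). Fut7 had libraries without reads and no ratio test. These 8 tests are unadjusted, and 0.0286 is the smallest p that 35 splits allow.

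**Figure D4:**
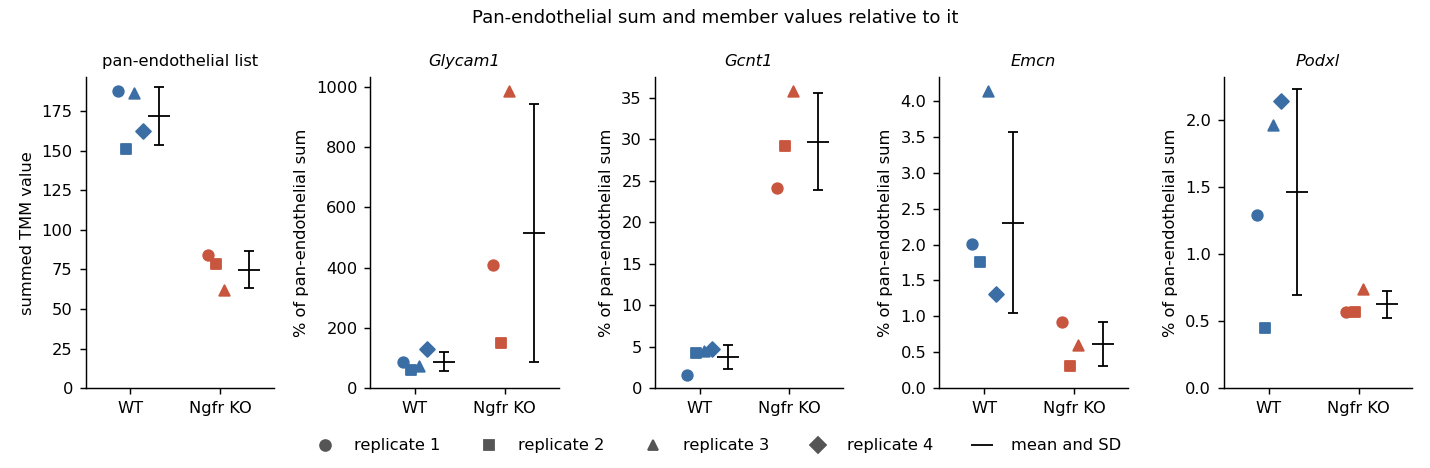
Left panel: summed TMM-normalised value of 16 pan-endothelial genes per library. Other panels: Glycam1, Gcnt1, Emcn and Podxl as a percentage of that sum, with 1 symbol per library and bars for mean and SD. The sum is lower in all 3 Ngfr KO libraries, Emcn remains lower relative to it, and Podxl overlaps through WT replicate 2.

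Markers of other vessel types were read in the same libraries. Capillary genes had summed values of 127 to 237 in WT, against 17.8 to 47.9 in Ngfr KO, led by Fabp4, with 4 of 6 tested genes lower (limma). Lymphatic genes had sums of 96.5 to 183.8 and 25.8 to 67.6, led by Lyve1, Ccl21a and Stab2, with 6 of 7 lower and Ccl21a, which stands in the HEV entry list too, not called. Arterial genes had sums of 19.3 to 35.2 and 65.0 to 96.2, the higher sum in Ngfr KO coming from Gja4, with 2 of 4 tested genes lower and 2 higher. Beside these counts, 15.8% of all tested genes were called lower and 18.3% higher (limma). Endothelial markers of several kinds thus moved with Emcn and Podxl, and their part in those falls was not tested. Pericyte sums overlapped between groups, at 18.1 to 47.4 and 26.8 to 59.3. Of 3 pericyte genes tested, Kcnj8 was called higher (log2 change 0.73, limma adjusted p = 0.0135) and 2 were not called. The highest WT value of Kcnj8 was 2.29, below its lowest Ngfr KO value of 2.65.

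The genes whose pattern over the 7 samples was most like that of Glycam1 were Brinp1 (Pearson's r 0.96), AC126262.2 (0.95), Serpina3n (0.94), Ccl20 (0.94) and Abcc9 (0.94). Among these, only Ccl20 was called (log2 change 3.23, limma adjusted p = 0.00516), and all 5 were highest in Ngfr KO replicate 3. For Ackr1 they were Gpx4 (0.97), Vps4b (0.93), Eif3j2 (0.92), CT009718.1 (0.92) and Eif1 (0.90), none of them called. Neither set held a gene of the venular lists. These coefficients are taken from 8326 genes over 7 libraries and describe likeness only.

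By position, 4 of the 9 members lie on chromosome 1, with Sele and Selp side by side on the plus strand. Sele, Selp, Cd34 and Ackr1 did not peak in a common library. Sele and Ackr1 were highest in Ngfr KO replicate 3, Selp in WT replicate 1, and Cd34 in Ngfr KO replicate 1.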

How the data were processed

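RNA was sequenced from FDCs sorted from pooled popliteal lymph nodes. Per the labels' protocols, cDNA from SMART-Seq v4 went into Nextera XT libraries. The submitters' processing notes name bcl2fastq 2.20.0.422 and the build mm10. Aligner, counter and annotation are not given in the sources used here. The authors deposited 1 signal per gene and sample, labelled TMM. Dividing by the smallest step of each sample gave whole reads for 100% of values (within 0.01 reads).

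Groups came from sample titles. limma 3.58.1 in R 4.3.3 (lmFit, eBayes with trend) was fitted on log2(value + 1), without covariates, to the 8326 genes that reached a value of 1 in 3 samples or more. The adjusted p threshold was 0.05. Members failing that filter were added to the same fit for their own statistics. edgeR 4.0.16 and DESeq2 1.42.0 were run on recovered reads, and the SE given for edgeR is the change divided by the root of its F statistic. Exact permutation tests used 35 splits. Coordinates, exon lengths (union of transcripts) and overlaps came from GENCODE M21 on GRCm38, where 21137 identifiers matched and 39 did not. The scripts were tested on simulated data. Floors and read counts cover counting error only, since amplified reads are not independent molecules. The design text calls the pools independent, and p-values measure the spread between these pools.

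The members and lists were chosen with earlier results of these data known, and the lists of B cells, germinal centre B cells and milk proteins after the values were seen. Named genes are the members, Ngfr, 5 genes most like Glycam1 and 5 most like Ackr1, the 3 largest called changes per pathway list, and up to 3 most abundant genes per marker list. Any further gene was picked with its values in view.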

Additional observations from a re-analysis of the deposited data

Results flagged for a closer look

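Among the 4 WT samples, 29 sets of values were examined for a sample far from the others by Dixon's criterion, where chance gives 1.45. In 3 of them a gap was large, and none of these was a venular gene.

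The summed B-cell list reached 200.3 in WT replicate 3 against 27.2 to 45.4 elsewhere in WT, a gap of 0.895 of the range. Igkc alone gave 179.7 of that sum in WT replicate 3. The summed germinal centre B-cell list was 4.84 in WT replicate 1 against 11.3 to 12.1 elsewhere in WT, a gap of 0.892 of the range, and Fas gave 3.48 of the lower sum. The mesothelial list, of which only Msln was in the table, reached 0.509 in WT replicate 3 against 0.00389 to 0.0572 elsewhere in WT, a gap of 0.894 of the range.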

How the results depend on the processing

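Emcn kept its sign and its call under all 15 alternatives, with log2 changes of -3.08 to -0.69, and Gcnt1 under all 16, with 1.26 to 1.86. Podxl kept its sign under 15 and lost the call without a filter. Without WT replicate 1, 3 or 4 Podxl failed the filter, so its values there come from fits to which it was added. Glycam1 stayed positive under 16 (0.49 to 1.67) and was called in 3 of them. The number of members called was 3, and 1 with the stricter filter (10 or more in 3 samples), which removes Emcn and Podxl from the test. Leaving out 1 replicate gave 2 to 4 members (2 without WT replicate 1, 3 or 4, where Podxl failed the filter) and 1614 to 3006 genes called, against 2844. The lowest gene counts came on leaving out WT replicate 1 (1870) and, in Ngfr KO, replicate 1 (1803) or replicate 2 (1614), and the cause was not tested. The stricter filter, which leaves fewer genes to test, gave 535 genes, and the share called among them was not compared. The number of members lower relative to the pan-endothelial sum was 1, and 1 to 2 when a replicate was left out, with 2 without WT replicate 2. The number higher was 2, and 2 to 4 over the alternatives.

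Members that were not called changed sign in places. Ackr1 had 0.0050 with edgeR and 0.0065 with DESeq2. With 1 replicate left out, Ackr1 ran from -0.23 to 0.17, above 0 without WT replicate 3 or Ngfr KO replicate 1. Cd34 ran from -0.049 to 0.20, below 0 without WT replicate 3, Ngfr KO replicate 1 or replicate 2. Sele ran from -0.010 to 0.47, below 0 without Ngfr KO replicate 3, and Selp from -0.20 to 0.019, above 0 without WT replicate 1. Ngfr (log2 change -0.52, limma adjusted p = 0.0430) was lower under all 15 alternatives and not called in 12.

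Replicate numbers do not mark shared animals in the labels, and deviations of same-numbered samples correlated at 0.30, -0.06 and -0.01, with 1 of 3 Ngfr KO samples closest to its own number. With the replicate number as a block, 2717 genes and 4 members were called, Glycam1 among them (log2 change 1.21, limma adjusted p = 0.0229). Fut7 had 0 to 43 reads per library and Cd34 16 to 152, and whether depth or the spread between pools limits them was not tested.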
